A study of Mus musculus with 6 samples.

Results

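Wnt ligands and genes of the canonical Wnt pathway were followed in primary chondrocytes of mice with and without Slc39a13, which encodes the zinc transporter ZIP13. The genes are a list given by name, 7 ligands (Wnt4, Wnt5a, Wnt5b, Wnt9a, Wnt10a, Wnt10b and Wnt11) with 3 genes that report on or carry out canonical signaling (Axin2, Lef1 and Tcf7). Of these 10 genes, 9 have at least 1 probe set under a single gene symbol, and they account for 17 of the 45101 probe sets on the array. The expression of Tcf7 is not analysed here.

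Rib cage cartilage of newborn mice was digested with collagenase, and the strained cells were grown in medium with fetal calf serum, with no sort described. Each genotype, wild type and Slc39a13-KO, was measured on 3 arrays, and neither was treated. The KO mice carry a germline deletion made in R1 embryonic stem cells, so Slc39a13 was missing from every cell of the animal and not from chondrocytes alone. The strain of the mice used for the arrays is not stated in the sources used here. The labels number the samples but do not say whether they are separate mice or cultures. What the p-values measure is then the spread among these arrays alone, possibly in part a technical one.

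Wnt proteins are secreted lipid-modified ligands that bind Frizzled receptors at the cell surface. In the canonical branch, binding together with the co-receptors LRP5 and LRP6 spares β-catenin from destruction, and β-catenin then acts with TCF and LEF proteins on target genes such as Axin2. Other Wnts, among them Wnt5a and Wnt11, are best known for signaling without β-catenin, and in growing cartilage both branches take part in the shaping, proliferation and maturation of chondrocytes.

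Of the 17 probe sets, that of Wnt10a was the only one to pass the test, and it was 2.33-fold lower in the KO cells. Wnt10a, a ligand best known from the development of teeth, hair and sweat glands, gave signals of 734, 854 and 760 in wild-type cells and of 292, 365 and 340 in KO cells. The 3 KO arrays were close together and all lay well below the lowest wild-type array. The signals are MAS5 intensities on a linear scale, and they were compared as log2(signal + 7.96), a scale that understates the change of dim genes. On this scale Wnt10a fell by 1.22 (SE 0.13, 95% interval -1.51 to -0.93), with an adjusted p of 0.00126 by limma over all 23294 probe sets tested. Axin2 and Lef1, the canonical readouts, did not pass the test in either direction.

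**Figure D1:**
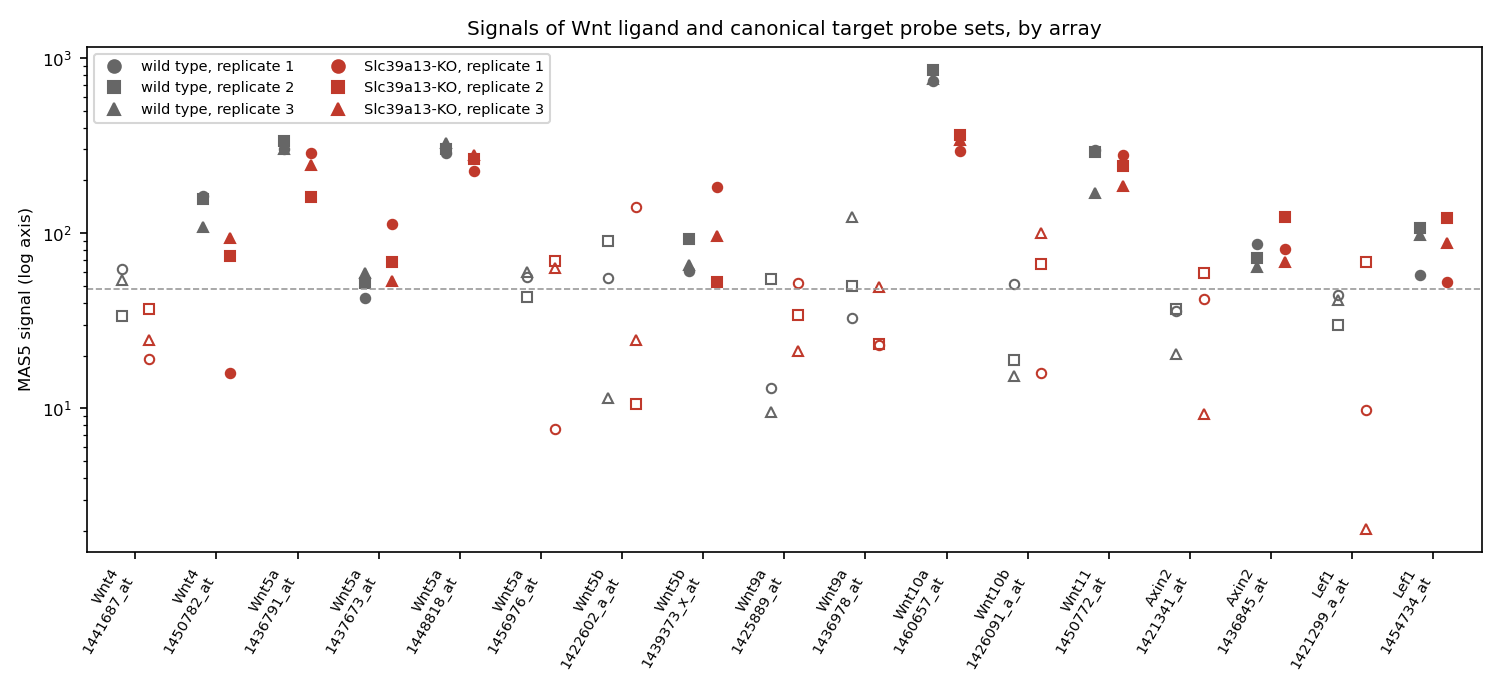
MAS5 signal (log axis) of each of the 17 probe sets on the 3 wild-type arrays (gray) and the 3 Slc39a13-KO arrays (red), with 1 symbol shape per replicate number. The dashed line is the signal of 47.9 that a probe set's mean on the log2 scale had to reach to be tested, and open symbols mark the 8 probe sets under it. The 3 KO points of Wnt10a lie between 292 and 365, below the 3 wild-type points at 734 to 854.

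Canonical signals reach the genome through TCF and LEF proteins, whose DNA core resembles CTTTGA or CTTTGT, and these letters were looked for on both strands of the 250 bases before each transcript start in the RefSeq promoter table (GRCm38.p6). The table matched 8 of the 10 genes, Tcf7 included, with 15 starts. The stretches of Lef1 from 131110047 and from 131110073 overlap in most of their bases, so the 15 are not all separate. Wnt5a and Wnt10a were not matched. Either core was held by 3 of the 15 windows, 1 each for Lef1, Wnt11 and Wnt5b. Of all 32851 promoter windows of that length, 27.6% hold one (13.8% CTTTGA and 16.5% CTTTGT), and the member share is near this. These 3 windows are shown with that of Wnt4, which holds none and whose gene had the lowest p after Wnt10a. Each is printed on the strand of its gene, ending at the base before the start, with the cores in capitals. TCAAAG and ACAAAG are the same letters read on the opposite strand.
Lef1, internal start, chr3:131156044-131156293, plus strand: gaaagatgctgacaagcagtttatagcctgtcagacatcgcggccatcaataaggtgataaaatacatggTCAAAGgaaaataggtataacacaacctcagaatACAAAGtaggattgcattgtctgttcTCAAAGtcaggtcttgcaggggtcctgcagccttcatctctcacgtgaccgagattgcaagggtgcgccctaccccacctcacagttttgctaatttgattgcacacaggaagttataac
Wnt11, chr7:98834862-98835111, plus strand: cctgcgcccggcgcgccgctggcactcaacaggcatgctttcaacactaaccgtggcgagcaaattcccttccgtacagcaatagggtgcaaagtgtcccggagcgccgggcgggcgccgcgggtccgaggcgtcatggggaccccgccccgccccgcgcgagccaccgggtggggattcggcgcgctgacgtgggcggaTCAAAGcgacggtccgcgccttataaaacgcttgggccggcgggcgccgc
Wnt5b, internal start, chr6:119449387-119449636, minus strand: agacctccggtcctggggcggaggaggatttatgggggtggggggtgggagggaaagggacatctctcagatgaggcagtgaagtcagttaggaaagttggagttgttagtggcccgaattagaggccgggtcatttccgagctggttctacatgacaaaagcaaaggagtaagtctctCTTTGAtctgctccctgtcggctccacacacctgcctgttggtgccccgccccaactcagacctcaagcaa
Wnt4, chr4:137277385-137277634, plus strand: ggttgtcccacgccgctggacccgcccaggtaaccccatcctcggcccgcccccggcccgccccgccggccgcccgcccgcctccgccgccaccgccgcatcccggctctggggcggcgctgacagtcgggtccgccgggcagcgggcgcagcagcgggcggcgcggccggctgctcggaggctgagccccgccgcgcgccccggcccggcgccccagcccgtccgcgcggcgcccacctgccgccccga
The internal Lef1 window holds 3 cores, which begin 180, 146 and 120 bases before the start. In the Wnt11 window the core begins 50 bases before the start, and in the Wnt5b window 71 bases before it. Wnt10a, the one member gene that passed the test, has no window here, so the cores cannot be set against the calls. A match of letters is a description and not a binding site, and the window of Axin2 holds neither core.

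Across the member genes, 9 probe sets of 7 genes had a mean above the filter, and 8 probe sets, among them all those of Wnt9a and Wnt10b, lay under it. Of the 9 tested, 1 was lower in the KO cells at an adjusted p under 0.05 by limma, where 3.37% of all tested probe sets were lower, and 0 were higher, where 3.44% were. At an unadjusted p under 0.05 by limma, Wnt10a and Wnt4 were lower and 0 were higher, where 11.0% of all tested probe sets were lower and 11.6% higher. Over the whole array 785 probe sets were lower and 802 higher, a split that became 259 and 131 when each array was centered on its median. The log2 fold change was below 0 for 6 of the 9 tested probe sets and above 0 for 3, with a median of -0.07 against 0.01 over all tested probe sets. On 4 of the 9 all KO arrays lay below all wild-type arrays, a pattern seen in 13.7% of all tested probe sets, and on the other 5 the groups overlapped. These 4 are the probe set of Wnt10a, one of Wnt4 and a pair for Wnt5a, which share a target.

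**Figure D2:**
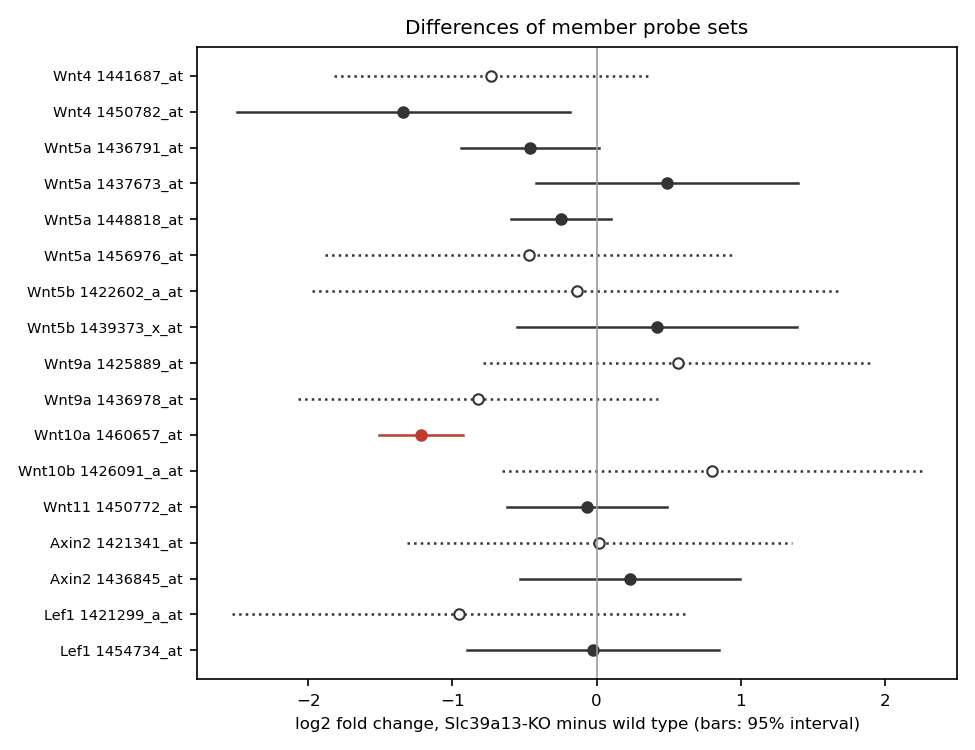
Log2 fold change (Slc39a13-KO minus wild type, horizontal axis) of the 17 probe sets, with bars for the 95% interval from limma. Filled points with solid bars passed the filter, open points with dotted bars are from the fit without a filter, and Wnt10a (red, -1.22) is the one probe set past the adjusted threshold.

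Wnt4, a ligand that takes part in joint formation and in chondrocyte maturation, read 162, 157 and 108 in wild-type cells and 16.0, 74.2 and 94.2 in KO cells with its tested probe set. The groups did not overlap, but the first KO array was far below the other two. The log2 fold change was -1.34 (SE 0.52, 95% interval -2.50 to -0.18), and the adjusted p by limma was 0.159. Without the first KO array the log2 fold change was -0.69, with an adjusted p of 0.187 by limma. The other probe set of Wnt4 was under the filter, with 62.1, 33.7 and 53.8 in wild-type cells and 19.0, 37.0 and 24.4 in KO cells. Its log2 fold change was -0.73, with an adjusted p of 0.502 by limma without a filter, and its groups overlapped.

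Wnt5a, a ligand of the non-canonical branch that guides the proliferation and orientation of growth plate chondrocytes, has 4 probe sets, and they differed in sign. One of them read 288, 302 and 325 in wild-type cells and 226, 264 and 280 in KO cells, and another read 301, 337 and 300 against 287, 160 and 245. On both, each KO array lay below each wild-type array, by a margin that was narrow for the nearest arrays. Their log2 fold changes were -0.25 (SE 0.16, 95% interval -0.59 to 0.10) and -0.46 (SE 0.21, 95% interval -0.94 to 0.01), with adjusted p-values of 0.386 and 0.234 by limma. The dimmest of those tested read 42.6, 52.0 and 59.4 in wild-type cells and 113, 68.1 and 53.4 in KO cells, with a log2 fold change of 0.49 and an adjusted p of 0.521 by limma. The remaining one was under the filter and read 56.5, 43.1 and 60.2 against 7.59, 68.9 and 63.2, with a log2 fold change of -0.47 and a first KO array far below the other 5.

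Wnt5b, the close relative of Wnt5a found in prehypertrophic cartilage, read 61.1, 92.6 and 65.5 in wild-type cells and 184, 52.7 and 96.8 in KO cells with its tested probe set, whose name ends in x_at, a kind that can bind more than 1 transcript. The KO arrays lay on both sides of the wild-type arrays, and the log2 fold change was 0.42 (SE 0.43, 95% interval -0.55 to 1.39, adjusted p = 0.613 by limma). A probe set of the gene under the filter ranged from 11.4 to 89.7 in wild-type cells and from 10.6 to 140 in KO cells.

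Wnt11, a non-canonical ligand of moving and elongating cells, had signals of 296, 290 and 169 in wild-type cells and of 281, 242 and 186 in KO cells. The groups covered nearly the same range, with a log2 fold change of -0.07 (SE 0.25, 95% interval -0.62 to 0.49, adjusted p = 0.904 by limma). The interval holds changes of up to 0.62 downward and 0.49 upward on the log2 scale.

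Wnt9a, which takes part in the formation of joints, and Wnt10b, a canonical ligand of bone and fat precursors, were too dim to be tested with the rest. The 2 probe sets of Wnt9a ranged from 9.47 to 123 in wild-type cells and from 21.2 to 52.2 in KO cells. Their log2 fold changes had opposite signs, 0.56 and -0.82, with adjusted p-values of 0.707 and 0.514 by limma without a filter. Wnt10b read 51.1, 18.8 and 15.4 in wild-type cells and 15.9, 67.0 and 101 in KO cells, with a log2 fold change of 0.80 and an adjusted p of 0.598 by limma without a filter. On each of these 3 probe sets the groups overlapped.

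Axin2, a negative regulator of β-catenin that is itself induced by it in many tissues, read 86.8, 72.4 and 64.4 in wild-type cells and 81.2, 124 and 68.0 in KO cells with its tested probe set. The second KO array was the highest of the 6 and the other 2 lay among the wild-type arrays. The log2 fold change was 0.23 (SE 0.34, 95% interval -0.53 to 0.99), with an adjusted p of 0.734 by limma. The probe set of Axin2 under the filter read 36.1, 36.8 and 20.3 against 41.8, 59.5 and 9.30, a log2 fold change of 0.02.

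Lef1, a DNA-binding partner of β-catenin and often its target, read 57.5, 107 and 97.1 in wild-type cells and 52.7, 122 and 87.5 in KO cells with its tested probe set. Both groups held 1 low and 2 higher arrays, and the log2 fold change was -0.03 (SE 0.39, 95% interval -0.90 to 0.84, adjusted p = 0.978 by limma). Its other probe set was under the filter, with 44.4, 30.0 and 41.3 in wild-type cells and 9.81, 68.0 and 2.05 in KO cells, and a log2 fold change of -0.95 (adjusted p = 0.556 by limma without a filter). The intervals of Axin2 and Lef1 are wide enough to hold a change in either direction.

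Several Wnt genes lie beside another Wnt gene in the mouse genome, and Wnt6 is the neighbor of Wnt10a. Wnt6 read 164, 137 and 120 in wild-type cells and 131, 107 and 78.0 in KO cells with its tested probe set. The groups overlapped, and the log2 fold change was -0.40 (SE 0.28, adjusted p = 0.424 by limma). A second probe set of Wnt6 was under the filter and of opposite sign, with 8.78, 5.93 and 34.3 in wild-type cells and 146, 43.2 and 3.22 in KO cells (log2 fold change 1.06, adjusted p = 0.601 by limma without a filter). The difference between Wnt6 and Wnt10a was not tested. Wnt3a, the neighbor of Wnt9a, and Wnt1, the neighbor of Wnt10b, had signals of at most 84.5 on the 6 arrays and mean values under the filter.

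Beyond the member genes, 122 genes of the Wnt pathway were listed by role, of which 2 are not on the array under a single symbol and 96 were tested with their brightest probe set. Of the 96, 3 were lower in the KO cells and 7 higher, and 86 did not pass the test. Over all 12715 genes tested in this way, 3.92% were lower and 3.97% higher. The median log2 fold change of the 96 genes was -0.02, beside 0.01 over all genes. Some genes stand in more than 1 list.

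**Figure D3:**
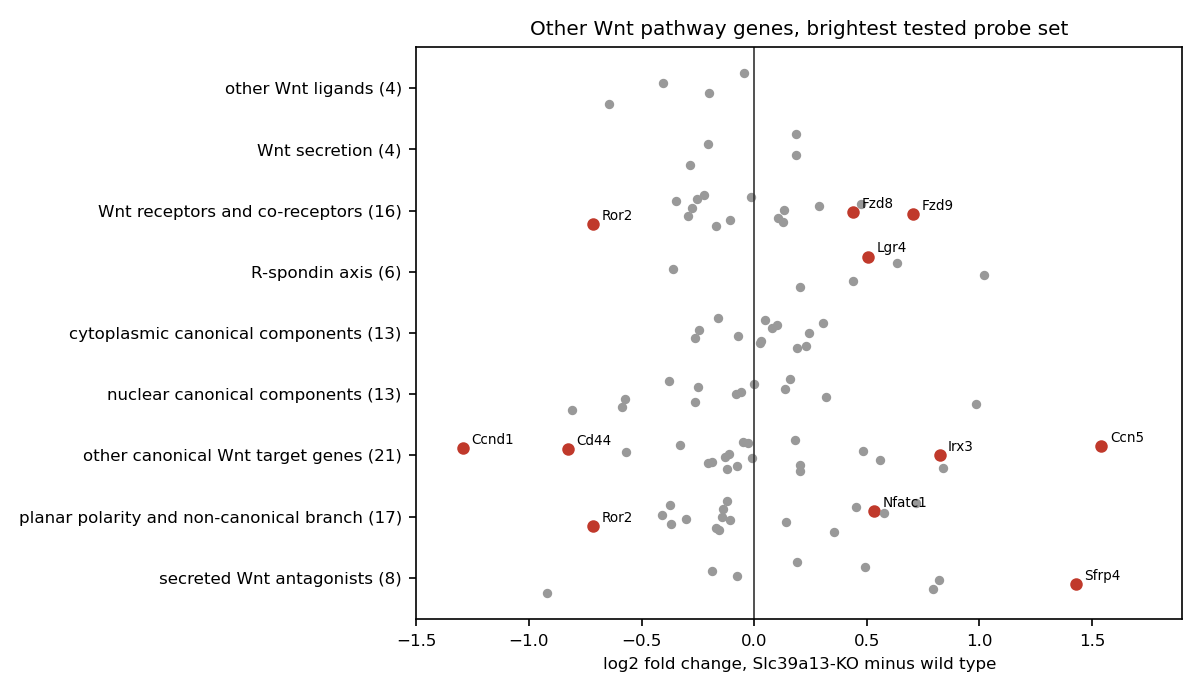
Log2 fold change (Slc39a13-KO minus wild type, horizontal axis) of the 96 other Wnt pathway genes, grouped by role, with the number tested in parentheses. Each gene has 1 point in each of its groups, from its brightest probe set. Red points are the 3 lower and 7 higher genes at an adjusted p under 0.05, with Ccnd1 at -1.29 and Ccn5 at 1.54 farthest from 0. Ror2 stands in 2 groups, as do Ryk, Ptk7, Porcn, Notum and Znrf3.

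None of the 4 other ligands tested and none of the 4 genes of Wnt secretion passed by their brightest probe set. Wls, the carrier that brings Wnt proteins to the cell surface, came nearest among the latter. It read 4284, 4485 and 4733 in wild-type cells and 3992, 3535 and 3544 in KO cells, a log2 fold change of -0.29 (SE 0.08) with an adjusted p of 0.0687 by limma. One further probe set of Wls was lower at -0.59 (adjusted p = 0.00895 by limma), and another was at -0.09 (adjusted p = 0.670 by limma).

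Of 16 receptors and co-receptors tested, 1 was lower and 2 were higher. Ror2, the receptor tyrosine kinase through which Wnt5a signals in cartilage, read 548, 670 and 497 in wild-type cells and 311, 344 and 376 in KO cells. Every KO array was below every wild-type array, and Ror2 fell by 0.71 on the log2 scale (SE 0.15, adjusted p = 0.0210 by limma). Its second, dimmer probe set did not pass (log2 fold change -0.34, adjusted p = 0.803 by limma). Fzd9 and Fzd8, both of the Frizzled family, were higher by 0.70 (adjusted p = 0.0431) and 0.44 (adjusted p = 0.0285) in limma. A second probe set of Fzd8 was at 0.48, with an adjusted p of 0.166 by limma.

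Among 6 genes of the R-spondin axis, which amplifies Wnt signals at the membrane, Lgr4 was higher by 0.50 (SE 0.13, adjusted p = 0.0437 by limma) and the other 5 did not pass. None of 13 cytoplasmic components passed, and Tnks, a tankyrase that marks axin for destruction, had the lowest p among them (log2 fold change 0.23, adjusted p = 0.188 by limma). None of 13 nuclear components passed either. Tcf7l2, a TCF partner of β-catenin, read 342, 300 and 317 in wild-type cells and 215, 211 and 211 in KO cells. The groups were far apart, with a log2 fold change of -0.57 (SE 0.15) and an adjusted p of 0.0509 by limma, just outside the threshold. A second probe set of Tcf7l2 was at 0.05.

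Of 21 other genes known as canonical targets, 2 were lower and 2 higher. Ccnd1, the cyclin that drives cells out of the first gap phase, read 9394, 10318 and 10597 in wild-type cells and 4045, 4288 and 4000 in KO cells. The KO arrays lay far below the wild-type arrays, and Ccnd1 fell by 1.29 on the log2 scale (SE 0.08, adjusted p = 0.000191 by limma), and on its other probe sets it fell by 0.87 and fell by 1.11. Cd44, a hyaluronan receptor, fell by 0.83 (SE 0.19, adjusted p = 0.0287 by limma). Its other probe sets were at -1.03 (adjusted p = 0.00496 by limma) and, with overlapping groups, at -0.37 (adjusted p = 0.135 by limma). Ccn5, a matricellular protein also called Wisp2, went the other way, with 522, 669 and 872 in wild-type cells and 2330, 1982 and 1669 in KO cells, a rise of 1.54 (SE 0.18, adjusted p = 0.00199 by limma). The fourth was Irx3, a homeobox gene, which rose by 0.82 (adjusted p = 0.0127 by limma). Each of these genes has known inducers besides Wnt.

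In the planar polarity and non-canonical branch, 17 genes were tested. Ror2 was again the one that was lower, and Nfatc1, a calcium-regulated transcription factor, was higher by 0.53 (SE 0.12, adjusted p = 0.0304 by limma). The other 4 probe sets of Nfatc1 lay between -0.02 and 0.31 and did not pass. Of 8 secreted antagonists, Sfrp4, which binds Wnt ligands outside the cell, was higher by 1.43 (SE 0.20, adjusted p = 0.00393 by limma) and the other 7 did not pass.

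The calls of Ccnd1, Ccn5 and Sfrp4 held whichever array was left out, while each of the other 7 genes lost its call without at least 1 array. Without the first or the second wild-type array, 1 pathway gene was lower and 2 were higher, and without the third wild-type array 3 were lower and 3 higher. Over the whole array these fits called 188 to 274 probe sets lower and 248 to 320 higher, fewer than the 785 and 802 with all arrays. Without the first KO array 4 pathway genes were lower and 5 higher, beside 804 and 782 probe sets over the whole array. Without the second KO array 1 was lower and 5 were higher, beside 503 and 440. Without the third KO array 8 were lower and 7 higher, beside 1209 and 1074. With median centring 1 was lower and 2 were higher, beside 259 and 131.

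The arrays measure RNA of the whole culture, in which fewer cells of a type and less RNA per cell cannot be told apart. Most mesothelial markers and some epithelial markers moved in the direction of Wnt10a, while those of other cells did not all do so. Of 13 listed mesothelial markers, 11 were tested and 9 were lower in the KO cells, with a summed signal of 10801 to 14718 in wild-type cells and of 3788 to 6145 in KO cells. Ezr and Slc9a3r1 made up 52.3% of this sum in wild-type cells and 82.1% in KO cells. Their KO means were 64.6% and 70.9% of the wild-type means, and those of the other 9 markers were 11.1% to 25.7%. Krt19, a keratin of the mesothelium, read 155, 14.4 and 9.37 on the 3 KO arrays, and Msln, which defines that layer, read 26.1, 151 and 36.8 on the 3 KO arrays. Muc16 and Cdh1, the untested mesothelial markers, were under the filter and not lower in KO cells. Muc16 read 24.4, 37.9 and 38.8 in wild-type cells and 119, 40.9 and 51.3 in KO cells. Cdh1 read 14.0, 1.43 and 34.3 against 22.0, 60.3 and 62.6. Of 11 epidermal and other epithelial markers, 6 were tested and 4 were lower (Perp, Pkp1, Krt14 and Dsp), with a summed signal of 2399 to 2788 against 738 to 926. The KO means of these 4 were 16.5% to 37.4% of the wild-type means. Beside these marker counts, 3.92% of all 12715 genes tested by their brightest probe set were lower and 3.97% higher. Epcam did not pass (log2 fold change 0.40), Krt5 did not (-0.50), and Krt15, Krt17, Trp63, Cdh1 and Sfn were under the filter.

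As a share of the wild-type mean, Wnt10a was at 37.4% to 46.7% on the KO arrays, the summed mesothelial markers at 31.2% to 50.7% and the summed epithelial markers at 28.6% to 35.8%. The summed chondrocyte markers were at 127% to 175%, with 5 of 13 tested higher and 1 lower (Col9a3). The summed fibroblast and perichondrium markers were at 123% to 158%, with 5 of 11 tested higher and 3 lower. The 3 lower ones were Tcf21, Pdgfra and Thy1, with KO means at 27.6%, 70.2% and 71.5% of the wild-type means. The 5 higher ones, Col1a1, Col1a2, Col3a1, Postn and Lum, were at 144% to 163%. In sum, osteoblast markers were at 159% to 238%, skeletal muscle markers at 106% to 122% and adipocyte markers at 90.8% to 140%. Tnnt3, at 227% of its wild-type mean, made up 65.3% of the skeletal muscle sum in KO cells. The KO means of the other tested muscle markers, Acta1, Myod1, Des and Mylpf, were 48.2% to 72.6% of the wild-type means. The part that the mesothelial, epithelial and other markers had in the fall of Wnt10a was not tested. Of 7 endothelial markers on the array only Kdr was tested, and it did not pass, with signals of 59.4 to 146 over the 6 arrays. Pecam1 and Tie1, which define that cell type, read at most 14.0. Cdh5, Tek and Emcn, also under the filter, were highest on the first KO array, at 71.2, 60.8 and 73.7. Esam, under the filter, read 106, 78.0 and 148 in wild-type cells and 38.5, 5.02 and 7.08 in KO cells. Of 9 T cell markers on the array, Cd8a and Zap70 were tested and did not pass, and their summed signal was 353 to 709 in wild-type cells and 205 to 398 in KO cells. Cd3e and Cd3d, which define T cells, read at most 20.4, while Cd3g reached 66.6 and Cd247 reached 75.0, all under the filter. Of the macrophage markers 5 were tested and 0 passed, with a summed signal of 609 to 797 in wild-type cells and 527 to 807 in KO cells. The sum held opposite moves. In KO cells Cd14 was at 35.5% of its wild-type mean (adjusted p = 0.0509 by limma) and Lyz2 at 221% (adjusted p = 0.118 by limma). Cd68, Csf1r and Adgre1 lay between, at 66.7% to 127%.

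**Figure D4:**
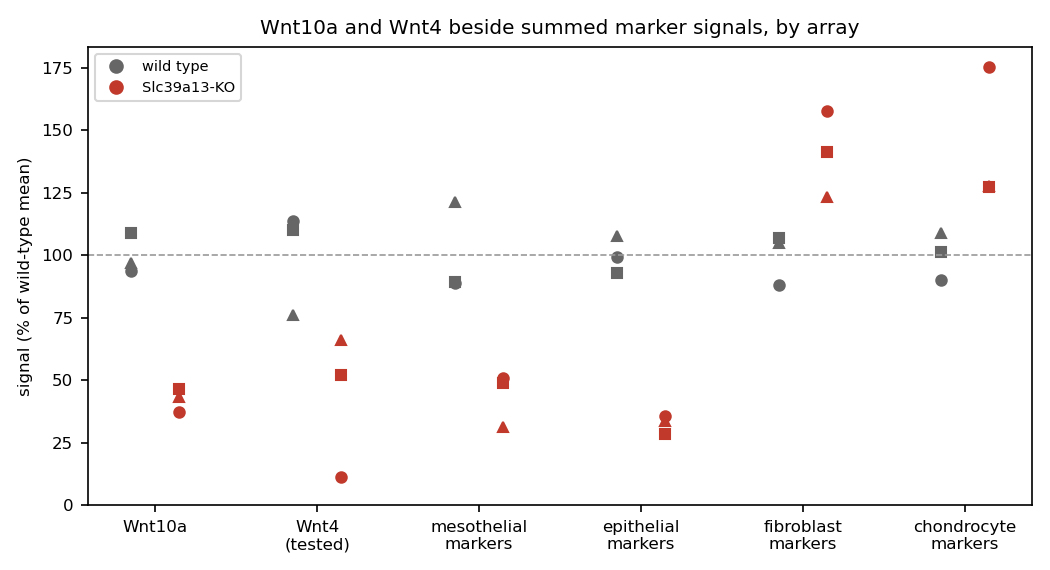
Signal as a percentage of the wild-type mean (linear axis from 0) for Wnt10a, for Wnt4 and for the summed signals of 4 lists of cell type markers, on the wild-type (gray) and Slc39a13-KO (red) arrays, with 1 symbol shape per replicate number. On the KO arrays Wnt10a (37.4% to 46.7%), the mesothelial sum (31.2% to 50.7%) and the epithelial sum (28.6% to 35.8%) lie below 100%. Ezr and Slc9a3r1 make up 82.1% of the mesothelial sum in KO cells. The fibroblast and chondrocyte sums lie above 100%, while the fibroblast markers Tcf21, Pdgfra and Thy1 and the chondrocyte marker Col9a3 were lower in KO cells.

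The labels were checked with Slc39a13 itself, which read 901, 1081 and 991 in wild-type cells and 100, 196 and 165 in KO cells, so that it fell by 2.67 on the log2 scale (SE 0.22, adjusted p = 0.000535 by limma). Where its probe set lies relative to the deleted exons is not known here. The chondrocyte marker Col2a1 read at least 29852 on every array. The first KO array stood apart, with a correlation of 0.940 to 0.950 with the other arrays, which correlated with each other at 0.960 to 0.980 over probe sets, and its median signal was 108 where the others had 80.7 to 88.4. Without it, Wnt10a had a log2 fold change of -1.13 and an adjusted p of 0.00144 by limma. Xist, a transcript of female cells, read 5194 on the third wild-type array and 6445 on the second KO array. It read at most 107 on the other 4, so each group held 1 array with a high value. The 3 arrays of a group were thus not all repeats of 1 RNA sample.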

How the data were processed

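Total RNA of 3 wild-type and 3 Slc39a13-KO samples was labeled as biotinylated cRNA and hybridized to Affymetrix mouse genome arrays. The deposited intensities are 1 signal per probe set and array on a linear scale. The submitters' processing notes name MAS5, without a version, whereas gcRMA is the method in the study's text. On every array the trimmed mean is 500.003, as MAS5 scaling gives. The genome build behind the probe sets is not given in the sources used here, and gene names come from the array's annotation, which can be old.

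The pseudocount of 7.96 is the 10th percentile of all signals. Probe sets with 1 gene symbol (34945 without controls) and a mean log2 value of at least 5.80, the 40th percentile, were tested without covariates by lmFit and a trended eBayes of limma (version 3.58.1, R version 4.3.3). P-values were adjusted with the Benjamini-Hochberg method over all 23294, with a threshold of 0.05. Member probe sets under the filter were taken from the same fit without it, over all 34945. Pathway genes were counted by their brightest tested probe set. The number of arrays limits the precision.

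The text names every member probe set, and from each pathway list up to 3 genes past the threshold with the largest change, or the 1 with the lowest p. Irx3, other probe sets of these genes, the Wnt neighbors and the marker genes given are additions made after values were seen. The member genes and lists were chosen with earlier results of these data known. Alternatives changed the filter, pseudocount, scaling, choice of probe set, replicate block, trend and test, and left out each array in turn. Markers of osteoblasts (2 of 3 tested higher, 0 lower), skeletal muscle (1 of 5 higher, 1 lower) and adipocytes (0 of 2 passed) were also listed.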

Additional observations from a re-analysis of the deposited data

How the results depend on the processing

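Wnt10a kept its direction under all 19 alternatives, between -1.31 and -1.13 on the log2 scale, and passed in 18. Of these passes, 1 rests on the unadjusted p of Student's t-test. With Student's t-test, which the study's methods name for comparing 2 groups in general, Wnt10a had an adjusted p of 0.0613. With that test and adjustment 0 member probe sets were lower. For its arrays the study instead listed genes with 2-fold changes, from gcRMA signals. Wnt10a was 2.33-fold lower here, from MAS5 signals with a pseudocount, so this value is not on the study's scale. The lower and higher counts of member probe sets were otherwise 1 and 0, also whichever array was left out. For the tested probe set of Wnt4 the log2 fold change ran from -1.74 to -0.69 and the adjusted p by limma from 0.0741 to 0.373. The sign of Wnt11 turned in 3 of 19 alternatives, that of Lef1 in 3 of 18 and that of Wnt5b in 1 of 17, none of them called. Over the other pathway genes, 3 were lower and 7 higher. These became 1 and 2 with median centring and 1 and 0 without the trend. Student's t-test gave 1 and 0 adjusted and 13 and 12 unadjusted. In the same order, 259 and 131, 61 and 47, 39 and 45, and 2043 and 2326 of all 23294 probe sets were lower and higher. Averaging all tested probe sets per gene gave 5 lower and 6 higher, beside 417 and 462 of all 12715 genes. Leaving out 1 array gave 1 to 8 lower and 2 to 7 higher.

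The labels do not say whether the replicate numbers pair the samples. Deviations from the group means correlated at 0.03, 0.01 and -0.05 for same-numbered arrays and at -0.06 to 0.04 for the others. With 3 arrays a group, these values do not settle whether the samples were paired. With the number as a replicate block, the member counts stayed at 1 lower and 0 higher. In that fit 1 pathway gene was lower and 3 were higher, beside 422 and 415 probe sets over the whole array. The cause of these differences was not tested. With 3 arrays a group and signals near the floor, small changes of the dim ligands cannot be seen.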
